A study of Mus musculus with 16 samples.

Results

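Ligand-gated channels carry fast signalling between retinal neurons, and this account covers 34 genes that encode their subunits: 13 for GABA receptors, 5 for glycine receptors and 16 for glutamate receptors of the AMPA, NMDA and kainate types. The genes were chosen by symbol from the 43280 gene symbols counted in mouse retina. Of the 34, 33 had 10 or more reads in at least 2 libraries, and all 33 were among the 19905 genes tested. The exception was Gabra6, an alpha subunit known from cerebellar granule cells, which had 0 or 1 reads in each library. Other subunit genes of these receptors are not analysed here.

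RNA came from whole retina lysates of wildtype C57BL/6J mice in oxygen-induced retinopathy (OIR). In this model high oxygen halts retinal vessel growth in pups, whose retina is poorly vascularised when they return to room air. OIR mice breathed 75% oxygen from postnatal day 7 to day 12 and 21% thereafter, and control mice stayed at 21%. Retinas were collected on day 14, 17 or 30 after birth (P14, P17 or P30), with 2 control and 2 OIR libraries at P14 and 3 of each at P17 and P30. The labels give neither the sex of the animals nor whether a library is one animal or a pool, so the p-values measure the spread between these libraries, which may be technical in part.

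GABA-A receptors are pentameric chloride channels, usually of alpha and beta subunits with a gamma or delta, and the rho subunits form slow, sustained GABA receptors that in retina are known from bipolar cell terminals. Glycine receptors pair alpha subunits with the beta subunit Glrb, which binds the scaffold gephyrin, and serve amacrine input to bipolar, amacrine and ganglion cells. AMPA, kainate and NMDA receptors are cation channels gated by glutamate, which photoreceptors and bipolar cells release; OFF bipolar cells read photoreceptors through AMPA and kainate receptors, and ganglion and amacrine cells carry AMPA and NMDA receptors. In brain and spinal cord, maturation is known to exchange the NMDA subunit Grin2b for Grin2a and the glycine receptor subunit Glra2 for Glra1.

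Library totals ran from 26077663 to 41716971 counted reads, of which the 34 genes took 0.0821% to 0.142%. Same-group libraries differed by more than counting noise (chi-square per gene between 14.3 and 208). Defining markers of the retina were present throughout: all 10 rod, 12 bipolar and 12 ganglion cell markers and 13 of 14 amacrine and horizontal cell markers were at 1 CPM (counts-per-million reads) or more in every library. Lens genes took 0.168% of reads or less at P14, 0.0329% to 0.600% in P17 controls, 0.353%, 5.84% and 7.97% in the 3 P17 OIR libraries, and 3.30% to 8.33% at P30. The summed Y-linked genes were at 66.2 to 86.6 CPM in P17 controls and at 0.143 CPM or less in all 3 P17 OIR libraries, so that sex and OIR coincide at P17. A P14 control (replicate 2) and a P30 OIR library (replicate 2) were also low, at 0.227 and 0.0699 CPM.

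To compare genes with one another, CPM scaled by TMM were divided by the merged exon length in GENCODE M21; the transcripts in use in retina were not measured. The rho subunit Gabrr1 had the highest level per kb in each of the 6 groups, from 39.8 in OIR at P14 to 68.2 in controls at P30. In P30 controls it was followed by Gabrr2 at 44.0 CPM per kb, the high-affinity kainate subunit Grik5 at 18.4, the obligatory NMDA subunit Grin1 at 13.7 and Glrb at 13.4. At the low end of the tested genes in P30 controls stood Gabrb1 at 0.180 and Grin2a at 0.147 CPM per kb. Among the listed alpha subunits, Gabra3 took 75.4% ± 0.731 (SD, n = 3) of reads per kb in P30 controls and Gabra2 8.24% ± 0.152, in a strain whose Gabra2 is known to carry an intronic deletion that lowers its expression in brain.

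Several members sit beside each other in the genome (GRCm38/mm10). Gabrg1, Gabra2, Gabra4 and Gabrb1 lie on chromosome 5 between 70751047 and 72149037, where Gabra4 (minus strand) and Gabrb1 (plus strand) run head to head and share 46 exonic bases. Gabrr2 (33062999 to 33095865) and Gabrr1 (33132521 to 33163588) lie in tandem on the plus strand of chromosome 4. Whether the counting used strand is not given in the sources used here, so genes that overlap another gene on the opposite strand are uncertain: Grin3b shares 32.1% of its exonic bases with Tmem259, Grin1 13.5% with Grin1os and Grin2d 9.66% with Gm45441, with smaller overlaps for Gabrr3 (6.53%), Glra1 (5.84%) and Gabra5 (4.98%).

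**Figure D1:**
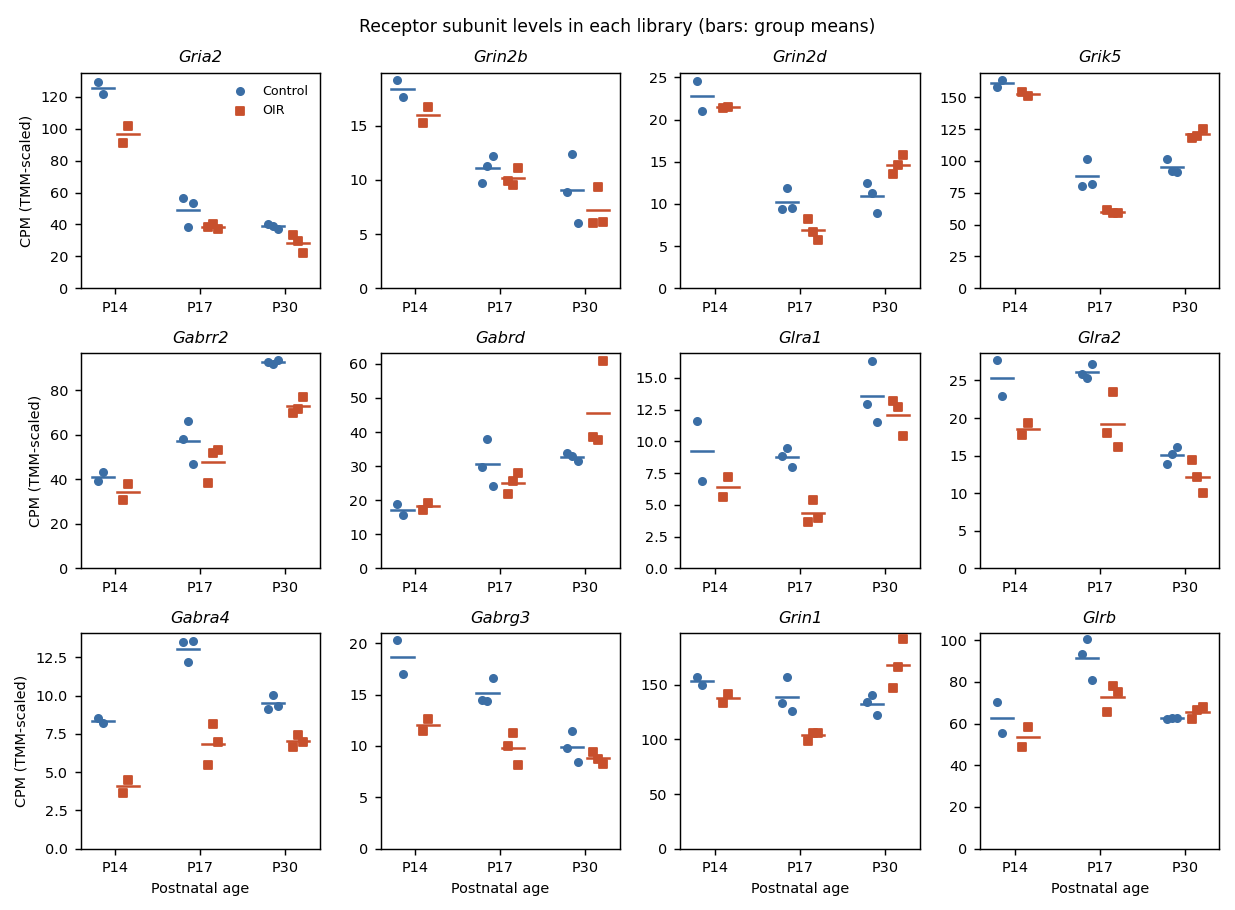
TMM-scaled CPM (vertical axes) of 12 subunit genes by postnatal age, with one point per library (control circles, OIR squares) and bars at group means. Gria2 and Grin2d are highest at P14 in both conditions, Gabrr2 is highest at P30, and Gabra4 in OIR lies below control at every age.

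The first question is how the subunits changed with age in control retina. From P14 to P17 the share of subunits called was near that of all genes. Those called higher were all of GABA or glycine receptors and those called lower all of glutamate receptors. In the quasi-likelihood test of edgeR, with Benjamini-Hochberg adjusted p over all tested genes and a threshold of 0.05, 6 of 33 subunits rose and 6 fell, 36.4% of the set. Of all tested genes 40.2% were called over the same interval, 18.3% as higher and 21.9% as lower, so the share is near the background. The 6 that rose were 4 of 12 GABA and 2 of 5 glycine subunits, and the 6 that fell were all among the 16 glutamate subunits; with scaling by library totals, which puts the median of all genes at -0.12, the split was 3 higher and 8 lower. Without P14 control replicate 2 the count was 7 in place of 12.

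From P17 to P30, 2 subunits rose and 13 fell. That is 45.5% of the set against 28.3% of all tested genes, for falls alone 39.4% against 13.4%, and for rises 6.06% against 14.9%. The median log2 fold change was -0.31, against 0.00 for all tested genes. Between P14 and P30, 4 rose and 15 fell, 57.6% against 51.3% of all genes (24.2% higher and 27.1% lower), with 11 of the 16 glutamate subunits among those that fell. Scaling by library totals put the median of all genes at -0.23 from P17 to P30 and at -0.39 from P14 to P30, and gave 1 higher and 20 lower for the first and 2 higher and 23 lower for the second. The count from P17 to P30 was 9 without P17 control replicate 1 and 8 with an offset for GC content, and the count from P14 to P30 was 10 with the lens share as a covariate. The comparisons share control groups and are not independent of each other. Lens genes took 5.31% or more of reads in P30 controls, and rod markers summed to 40859 and 42928 CPM at P14, 51017 to 72195 at P17 and 87274 to 92424 at P30. Bipolar markers went the other way, at 2554 and 2711 CPM at P14, 1974 to 2097 at P17 and 1877 to 2011 at P30. Muller glia markers rose, from 3781 and 3615 CPM at P14 to 5359 to 6010 at P17 and 6634 to 7017 at P30. Ganglion cell markers were at 1893 and 1648, 2019 to 2227 and 1602 to 1670 CPM. Pigment epithelium markers were at 486 CPM in P14 control replicate 1 and 1252 in replicate 2. Beyond the lens covariate, the part of the lens and marker genes in the differences was not tested.

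**Figure D2:**
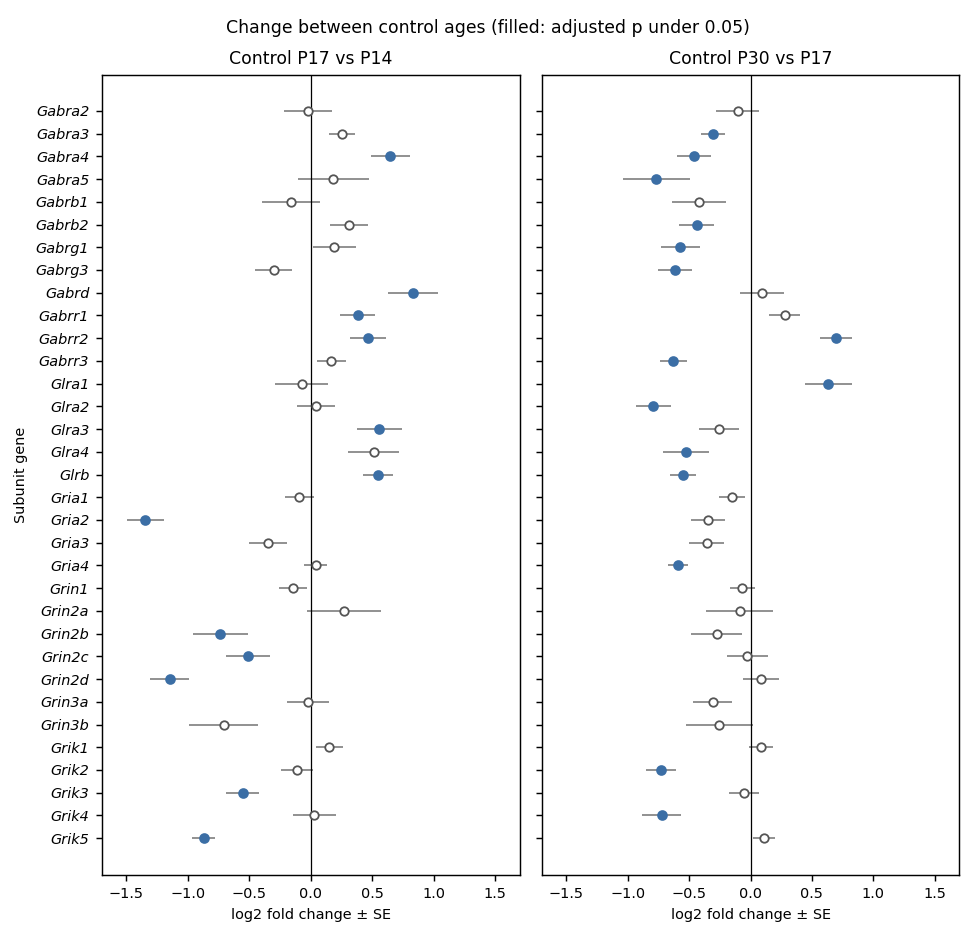
Log2 fold change with its SE (horizontal axis) of the 33 tested subunits (vertical axis) between control ages, P17 against P14 on the left and P30 against P17 on the right, filled where the adjusted p was under 0.05. The lowest value on the left is Gria2 at -1.35 and the lowest on the right is Glra2 at -0.79.

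Among GABA receptor subunits, Gabrr2 rose in both intervals and Gabrr1 rose early. Gabrr2 was at 39.2 and 43.4 CPM in the P14 controls, 58.1, 66.4 and 46.8 at P17 and 92.7, 91.7 and 93.5 at P30. The 3 ages do not overlap, and the rise from P14 to P30 was 1.17 on the log2 scale (SE 0.149, adjusted p = 8.25e-06, edgeR). Gabrr1 went from 103 and 94.5 CPM at P14 to 161, 146 and 161 at P30, a log2 fold change of 0.66 (SE 0.144); of its rises, that from P14 to P17 (0.38, adjusted p = 0.0419) was lost under 9 of 17 alternatives, and the early rise of Gabrr2 under 3. Gabrr3, the third rho gene, instead fell by 0.63 on the log2 scale from P17 to P30 (by 0.35 with an offset for GC content), and its share of the 3 rho genes per kb was 5.57% ± 1.30 in P17 controls and 2.67% ± 0.297 at P30 (SD, n = 3 each).

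The upstream windows of the tandem pair are shown because both genes rose from P14 to P30; the bases come from RefSeq (GRCm38.p6), end 1 base before the GENCODE start, and carry in capitals any match to TAATCC (reverse GGATTA), a core bound by the photoreceptor and bipolar cell factors CRX and OTX2, or to ACGTG (reverse CACGT), the core of the hypoxia response element, on either strand.
Gabrr2, chr4:33062862-33062998 (+): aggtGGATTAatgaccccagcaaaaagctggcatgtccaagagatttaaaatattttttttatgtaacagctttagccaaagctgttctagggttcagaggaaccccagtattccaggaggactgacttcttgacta
Gabrr1, chr4:33132306-33132520 (+): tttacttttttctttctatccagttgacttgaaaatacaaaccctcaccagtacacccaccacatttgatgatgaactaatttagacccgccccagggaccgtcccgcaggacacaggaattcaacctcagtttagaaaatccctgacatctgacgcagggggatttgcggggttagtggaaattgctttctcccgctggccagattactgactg
The Gabrr2 window holds 1 match, GGATTA, and the Gabrr1 window holds 0. In the 250 bases before the RefSeq start, TAATCC occurs in 6.25% and ACGTG in 16.6% of 32851 mouse promoters. Of the 26 subunit genes with a promoter in that table, Gabrr2 and Gabra2 hold the first, and Grin1, Gabrb1, Gabrb2 and Glra2 hold the second.

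Gabrd, which replaces gamma in receptors outside the synapse, rose early. Its level was 18.8 and 15.7 CPM at P14, 29.7, 38.00 and 24.2 at P17 and 33.7, 32.98 and 31.4 at P30. All later control libraries lay above both P14 libraries, and the log2 fold change from P14 to P17 was 0.83 (SE 0.207, adjusted p = 0.00470, edgeR), though the call was lost without P14 control replicate 2 (adjusted p = 0.0647). Gabra4, the usual alpha partner of delta in forebrain, rose from P14 to P17 by 0.65 (SE 0.156) and then fell by 0.46 from P17 to P30. From P17 to P30 the other alpha subunits Gabra3 (-0.31) and Gabra5 (-0.77), the beta subunit Gabrb2 (-0.44) and the gamma subunits Gabrg1 (-0.57) and Gabrg3 (-0.61) fell as well. Of 18 alternatives, 12 ended the Gabra5 call, 6 that of Gabra4, 5 each those of Gabra3 and Gabrb2, 3 that of Gabrg1 and 0 that of Gabrg3. With a per-library offset for GC content, an alternative added after seeing the data, the values were -0.24 for Gabra4, -0.12 for Gabra3, -0.28 for Gabrb2 and -0.17 for Gabrg1, and none of these 4 passed (adjusted p from 0.159 to 0.468). Of the GABA subunits Gabrg3 fell furthest over the whole span, from 20.3 and 16.98 CPM at P14 to 9.77, 11.5 and 8.40 at P30, without overlap (log2 fold change -0.92, SE 0.152, adjusted p = 9.51e-05, edgeR).

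Of the glycine receptor alpha subunits, Glra1 rose and Glra2 fell between P17 and P30. Glra1, the adult alpha subunit of spinal cord, was at 11.6 and 6.90 CPM in P14 controls, 8.83, 9.51 and 7.96 at P17 and 12.96, 16.3 and 11.5 at P30. Glra2, the embryonic form in spinal cord, was at 27.7 and 22.9 CPM at P14, 25.9, 25.3 and 27.2 at P17 and 13.9, 15.2 and 16.1 at P30. From P17 to P30 Glra1 rose by 0.63 (SE 0.191, adjusted p = 0.0194) and Glra2 fell by 0.79 (SE 0.141, adjusted p = 0.000503, edgeR). The Glra2 call held under every alternative run, and the Glra1 call was lost under 6 of 18, among them the lens covariate and the leaving out of P17 control replicate 1 or 3 or P30 control replicate 2.

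Per kb, Glra2 took 53.7% ± 2.60 of the 4 alpha subunits in P17 controls and 36.9% ± 4.27 at P30, and Glra1 took 23.5% ± 1.82 and 42.96% ± 3.84 (SD, n = 3 each). The count ratio of Glra1 to Glra2, which does not depend on scaling, was 0.342, 0.376 and 0.293 in P17 controls and 0.932, 1.07 and 0.715 at P30. All P30 libraries were higher, a difference of 1.41 in log2 ratio; the two-sided exact permutation p was 0.1, the smallest that 3 against 3 libraries allow, and 0.225 after adjustment over 18 such comparisons. Glra3 and Glrb rose from P14 to P17 (log2 fold changes 0.56 and 0.55), and from P17 to P30 Glrb fell by 0.55 and Glra4 fell by 0.53. The early Glra3 call was lost under 5 of 17 alternatives and that of Glrb without P14 control replicate 2. The later Glra4 call was lost under 7 of 18, and that of Glrb with the GC offset (-0.29, adjusted p = 0.0630).

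The steepest decline of any subunit from P14 to P17 was that of Gria2, the AMPA subunit that, once its RNA is edited, keeps calcium out of the channel. Gria2 was at 129 and 122 CPM in the P14 controls, 56.4, 38.4 and 53.4 at P17 and 40.3, 39.1 and 37.5 at P30. Both P14 libraries lay above every later one. The log2 fold change was -1.35 to P17 (SE 0.150, adjusted p = 4.22e-06) and -1.69 to P30 (SE 0.151, adjusted p = 2.76e-07, edgeR), and both calls held under every alternative run, with a value to P30 of -1.09 under the GC offset.

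The editing acts on 1 codon of the pore loop, shown here in the 4 AMPA genes because the subunits differ in what becomes of it. The windows come from GENCODE M21 transcripts (GRCm38/mm10), lie in exon 11 of 16 for Gria1, Gria2 and Gria3 and in exon 12 of 17 for Gria4, and have the glutamine codon in capitals, which in Gria2 RNA is recoded to arginine by the deaminase Adarb1.
Gria1, chr11:57243079-57243111 (+): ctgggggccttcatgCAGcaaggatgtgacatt
Gria2, chr3:80706896-80706928 (-): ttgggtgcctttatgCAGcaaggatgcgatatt
Gria3, chrX:41610250-41610282 (+): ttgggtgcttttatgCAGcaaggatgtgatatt
Gria4, chr9:4464122-4464154 (-): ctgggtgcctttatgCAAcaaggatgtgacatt
The windows are identical between pairs of genes at 28 to 31 of 33 bases, and all 4 encode glutamine in the genome. Counts per gene do not measure editing.

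The other AMPA subunits had smaller fold changes. Gria1 was at 67.7 and 57.4 CPM at P14 and 49.5, 56.6 and 52.2 at P30 and was not called in any comparison. Gria4 fell from P17 to P30, from 99.4, 102 and 97.3 to 64.9, 67.4 and 65.5 CPM (log2 fold change -0.59, SE 0.0829, adjusted p = 5.98e-05, edgeR), with no overlap. Over the whole span Gria3 fell by 0.71, a call lost with the lens covariate and with the GC offset (-0.28, adjusted p = 0.105). Per kb, Gria2 took 21.4% ± 1.23 of the 4 AMPA subunits in P14 controls (SD, n = 2) and 9.96% ± 1.87 at P17 (n = 3). Its count ratio to the other AMPA subunits was 0.600 and 0.661 at P14 and 0.292, 0.201 and 0.288 at P17, so that both P14 libraries were higher; the exact permutation p was 0.1, the smallest that 2 against 3 libraries allow, and 0.225 adjusted over the 18 comparisons. Adarb1 itself rose from P17 to P30 by 0.67 on the log2 scale (adjusted p = 6.23e-05, edgeR).

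Of the 4 NMDA receptor subunits of the GluN2 group, which set channel speed and magnesium block, 3 fell from P14 to P17. Grin2d was at 24.6 and 21.05 CPM in P14 controls, 9.37, 11.9 and 9.55 at P17 and 12.4, 11.3 and 8.98 at P30. Grin2b was at 19.2 and 17.6 CPM at P14, 9.68, 11.3 and 12.2 at P17 and 8.88, 12.4 and 6.02 at P30. In both genes the P14 libraries stood above all later ones. From P14 to P17 Grin2d (log2 fold change -1.15, SE 0.159, adjusted p = 2.88e-05), Grin2b (-0.74, SE 0.223, adjusted p = 0.0146) and Grin2c (-0.51, adjusted p = 0.0308) fell by the edgeR test; the Grin2c call was lost under 7 of 17 alternatives, and the Grin2b call without control replicate 1 of either age.

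Grin2a, the GluN2 subunit of mature forebrain synapses, had a log2 fold change of 0.27 from P14 to P17 and did not pass (adjusted p = 0.504), at only 1.56 to 3.36 CPM in any library. The count ratio of Grin2a to Grin2b was 0.148 and 0.105 in P14 controls, 0.278, 0.229 and 0.262 at P17 and 0.335, 0.241 and 0.329 at P30. It was higher in every later library than in both at P14, by 1.04 in log2 ratio at P17 and 1.26 at P30 (exact permutation p = 0.1 each, the smallest possible, 0.225 adjusted over 18). Even so, Grin2d took 56.7% ± 0.589 and Grin2a 5.06% ± 0.425 of the 4 GluN2 subunits per kb in P30 controls (SD, n = 3). Grin1 was at 157 and 149.9 CPM at P14 and 134, 141 and 123 at P30 and was not called between control ages, nor was the glycine-binding subunit Grin3a. Grin3b, its homologue, fell by 0.96 from P14 to P30, at 1.83 CPM or less in controls, a call lost with the lens covariate and without P14 control replicate 1.

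Of the 5 kainate subunits 4 fell in one interval or the other. Grik5, which needs Grik1, Grik2 or Grik3 as a partner, was at 158 and 164 CPM in P14 controls, 80.5, 101 and 82.1 at P17 and 101, 92.3 and 91.2 at P30. The later ages overlap and lie below P14, with a log2 fold change of -0.87 to P17 (SE 0.0958, adjusted p = 3.06e-06, edgeR). Grik3 fell by 0.55 in the same interval, a call lost without P14 control replicate 1, and from P17 to P30 Grik2 fell by 0.73 (by 0.39 with the GC offset) and Grik4 fell by 0.72. Grik1, a kainate subunit of OFF bipolar cells in ground squirrel retina, stayed between 62.9 and 83.5 CPM in controls and was not called. Its share of the 5 kainate subunits per kb was 21.9% ± 2.01 at P14 (SD, n = 2) and 34.9% ± 1.10 at P17 (n = 3), while that of Grik5 was 67.7% ± 2.42 and 52.8% ± 1.88.

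**Figure D3:**
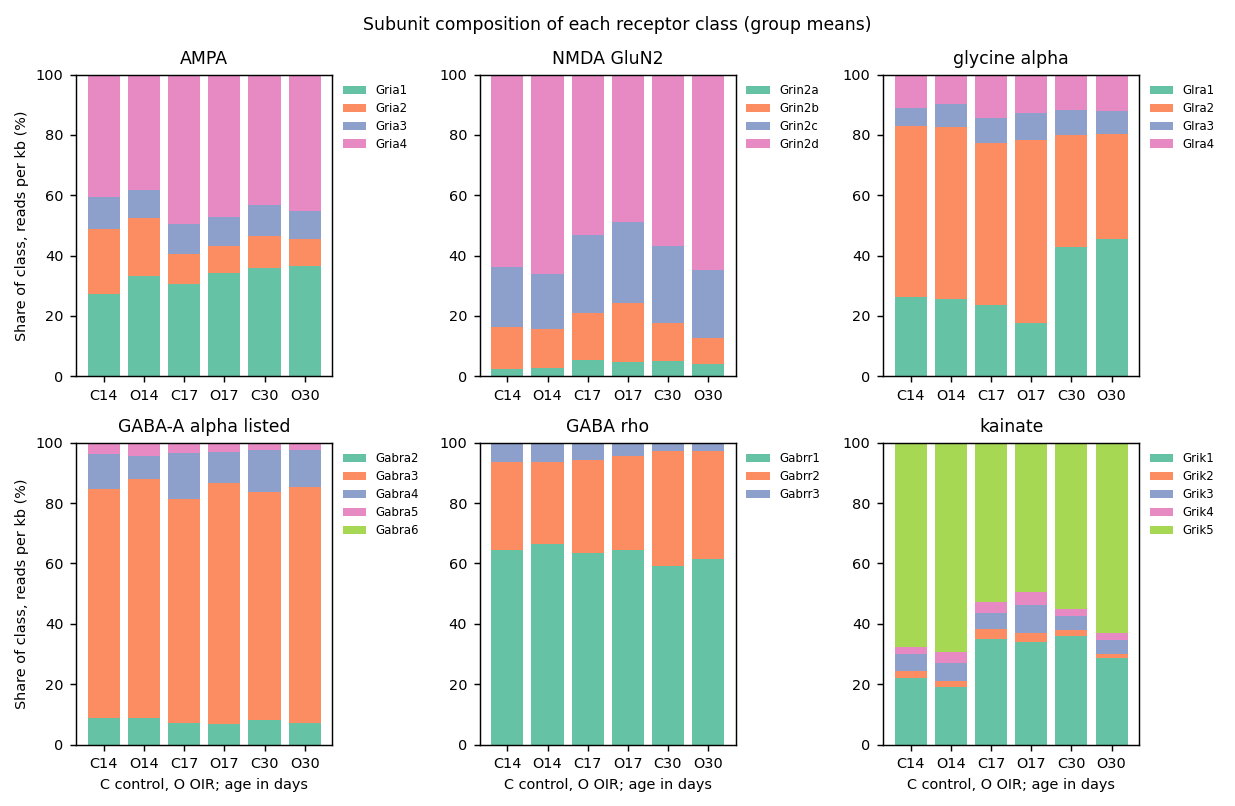
Share of reads per kb (vertical axis, percent, group means) of each listed subunit within its receptor class in the 6 groups, C for control and O for OIR followed by the age in days. The Gria2 part is larger at P14 than later, and the Glra1 part is larger at P30 than earlier in both conditions.

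At P14, 2 days after the return to room air, 1 of 33 subunits passed the test against control. It was Gabra4, at 3.65 and 4.47 CPM in OIR and 8.51 and 8.19 in control, without overlap. The log2 fold change was -1.04 (SE 0.177, adjusted p = 0.00722, edgeR). Of all tested genes, 0.819% were called at P14, 0.723% as higher and 0.0955% as lower. The call was lost without either control library, without OIR replicate 1, or with the lens covariate (adjusted p from 0.0522 to 0.153), with log2 fold changes between -1.20 and -0.90 over all 16 alternatives.

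The rest of the subunits leaned the same way at P14 without passing. Of 33 values 28 were below 0, with a median of -0.26, against 10526 of 19905 and a median of -0.01 over all genes. An unadjusted p under 0.05 (edgeR) was found for 15 of the 33, against 1834 of the 19905 tested genes. Gabrb1, the neighbour of Gabra4, was at 1.69 and 2.21 CPM in OIR and 4.12 and 3.36 in control (log2 fold change -0.93, adjusted p = 0.153), and Gabrg3 at 11.5 and 12.6 and 20.3 and 16.98 CPM (-0.63, adjusted p = 0.107). In both genes the OIR libraries lay below the controls. Grik4 had the highest value, 0.40 (adjusted p = 0.532). Summed bipolar markers were lower in both OIR libraries too, at 2333 and 2473 against 2554 and 2711 CPM in control. So were amacrine and horizontal markers, at 1656 and 1654 against 1970 and 1791 CPM. Ganglion cell markers (1617 and 1505 against 1893 and 1648) and Muller glia markers (3069 and 3138 against 3781 and 3615) were lower as well. Rod and cone markers were higher in both. The part of these markers in the subunits' values was not tested.

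At P17 subunits of all 3 receptor classes fell in OIR. Of 33 subunits 17 fell and 0 rose by the edgeR test, 51.5% of the set, against 14.6% of all tested genes, 7.81% called higher and 6.76% lower. The median log2 fold change was -0.44, against 0.00 over all genes, and 32 of 33 values were below 0 (9946 of 19905 over all genes). The falls covered 6 of 12 GABA subunits (median -0.50), 4 of 5 glycine subunits (median -0.49) and 7 of 16 glutamate subunits (median -0.38). The fold changes that passed ran from -0.29 for Gabra3 and Gria4 to -1.01 for Glra1.

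The libraries at P17 limit this result. Without the 2 lens-rich OIR libraries, replicates 1 and 2, the count was 8, namely Gabra4, Gabrb2, Gabrg3, Glra1, Glra2, Grik1, Grik5 and Grin2d, with the lone OIR library assumed to vary like the other groups. With the Y-linked reads as a covariate the count was 1, Gabra4, and the median log2 fold change was -0.35; all 3 OIR libraries lack Y-linked reads that all 3 controls hold, so within P17 sex and OIR cannot be told apart. The count was 10 without P17 control replicate 2 and 11 without OIR replicate 3.

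Markers of several retinal cell types differed at P17 as well. Summed bipolar markers were at 1557 to 1629 CPM in OIR and 1974 to 2097 in control at P17, with 7 of 12 genes lower and a median log2 fold change of -0.41. Amacrine and horizontal markers were at 1426 to 1576 against 1875 to 2085 CPM (9 of 14 lower, median -0.39), and ganglion cell markers at 1434 to 1591 against 2019 to 2227 CPM (6 of 12 lower, median -0.43). Markers of Muller glia, which are not neurons, were also lower in each OIR library, at 4539 to 5107 against 5359 to 6010 CPM (4 of 8 lower, median -0.33). Cone markers were higher in each, at 1304 to 1538 against 1091 to 1299 CPM (2 of 8 higher, median 0.19). Of the rod markers 0 of 10 passed, with a median of 0.03. In bulk RNA fewer cells of a type and less RNA per cell cannot be told apart, and the part of these markers in the subunits' values was not tested.

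Gabra4 led the GABA subunits again at P17, at 5.43, 8.13 and 6.99 CPM in OIR and 13.5, 12.2 and 13.6 in control. No library overlapped, and the log2 fold change was -0.93 (SE 0.139, adjusted p = 0.000229, edgeR). This call held under all 18 alternatives. Among them was the Y-linked covariate (-0.99, adjusted p = 0.0375, edgeR), which cannot separate sex from OIR within P17. The beta subunits, which complete the GABA site, fell too: Gabrb2 from 37.3, 35.3 and 34.5 to 23.4, 25.01 and 20.7 CPM (log2 fold change -0.63, SE 0.141) and Gabrb1 with -0.81, a call lost under 6 of 18 alternatives. Gabrg3 fell by 0.63 and Gabra3 fell by 0.29, the latter call lost under 11 of 18 alternatives. Of the rho genes Gabrr3 fell by 0.58, while Gabrr1 (-0.27) and Gabrr2 (-0.26) did not pass and their libraries overlapped.

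Glra1 had the lowest fold change of all 33 subunits at P17, at 3.69, 5.36 and 3.97 CPM in OIR against 8.83, 9.51 and 7.96 in control. The groups did not overlap, and the log2 fold change was -1.01 (SE 0.198, adjusted p = 0.00206, edgeR). Glra2 was at 17.99, 23.4 and 16.2 against 25.9, 25.3 and 27.2 CPM, a log2 fold change of -0.44 (SE 0.138) whose call was lost under 7 of 18 alternatives. The count ratio of Glra1 to Glra2 was 0.206, 0.229 and 0.246 in OIR and 0.342, 0.376 and 0.293 in control, lower in every OIR library (difference -0.57 in log2 ratio, exact permutation p = 0.1, the smallest possible, 0.225 adjusted over 18). Glra4 fell by 0.82 and Glrb fell by 0.33, the Glrb call being lost under 11 of 18 alternatives, and Glra3 did not pass (-0.49, adjusted p = 0.0519).

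Of the 4 AMPA subunits Gria4 alone passed at P17 (-0.29), a call lost under 7 of 18 alternatives, and Gria1 was at 55.5, 51.9 and 60.8 CPM in OIR and 59.7, 62.3 and 53.9 in control (-0.06, adjusted p = 0.766). The NMDA subunit Grin1 fell from 133, 157 and 126 to 98.9, 106 and 106 CPM (log2 fold change -0.42, SE 0.102, adjusted p = 0.00951, edgeR). Grin2d fell by 0.58 and Grin3a fell by 0.67. Of 18 alternatives, 3 ended the call of Grin1, 4 that of Grin2d and 3 that of Grin3a, each time among them the leaving out of P17 control replicate 2. The count ratio of Grin2a to Grin2b was lower in every OIR library, 0.168, 0.168 and 0.182 against 0.278, 0.229 and 0.262 (difference -0.57 in log2 ratio, exact permutation p = 0.1, 0.225 adjusted over 18), while neither gene passed alone.

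Of the 5 kainate subunits 3 fell at P17 and 0 rose. Grik5 fell from 80.5, 101 and 82.1 CPM in control to 61.5, 58.8 and 58.9 in OIR (log2 fold change -0.56, SE 0.0874, adjusted p = 0.000359, edgeR), while Grik1 fell by 0.51 and Grik2 fell by 0.57. Grik3 was the 1 subunit with a value above 0, at 19.4, 16.6 and 21.5 CPM in OIR against 15.1, 15.3 and 15.3 in control. Its OIR libraries lay above all controls, but it did not pass (0.33, SE 0.122, adjusted p = 0.0796). Its share of kainate subunits per kb was 9.18% ± 1.36 in OIR and 5.31% ± 0.496 in control (SD, n = 3 each).

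**Figure D4:**
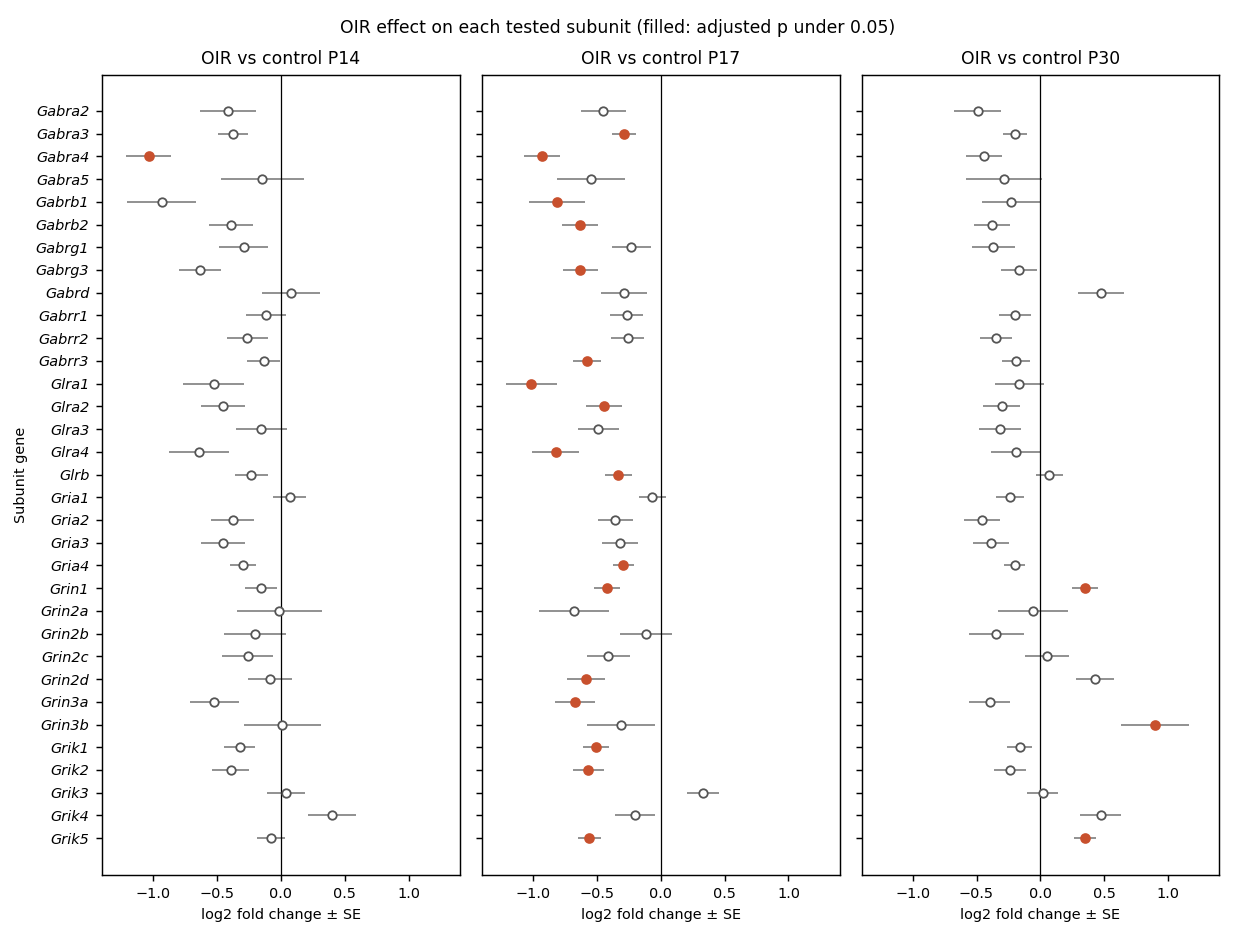
Log2 fold change of OIR against control with its SE (horizontal axes) for the 33 tested subunits (vertical axis) at P14, P17 and P30, filled where the adjusted p was under 0.05. At P17 all values except that of Grik3 lie below 0, and at P30 the 3 filled points, Grin1, Grin3b and Grik5, lie above 0.

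By P30 the falls no longer passed, and 3 glutamate subunits were called higher in OIR. That is 9.09% of the set, against 8.60% of all tested genes called at P30 (4.96% higher and 3.63% lower), so the share is near the background. Grin1 was at 147, 166 and 192 CPM in OIR and 134, 141 and 123 in control, Grik5 at 118, 119.6 and 125 and 101, 92.3 and 91.2, and Grin3b at 1.90, 1.15 and 2.09 and 0.987, 0.949 and 0.803. In all 3 genes every OIR library lay above every control. The share of all tested genes separated in this way was not counted. The log2 fold changes were 0.35 for Grin1 (SE 0.102, adjusted p = 0.0442), 0.35 for Grik5 (SE 0.0871, adjusted p = 0.0238) and 0.90 for Grin3b (SE 0.269, adjusted p = 0.0468), all by edgeR. The calls of Grin1 and Grin3b were each lost under 13 of 18 alternatives, the replicate block and the lens covariate among them, and that of Grik5 under 5. Each of the 3 calls was lost without P30 control replicate 2, without P30 control replicate 3 or without OIR replicate 3, and all were lost when only the P30 groups were fitted. Summed ganglion cell markers were also higher in every P30 OIR library, at 1801 to 2069 against 1602 to 1670 CPM. Muller glia markers were higher too, at 7175 to 8207 against 6634 to 7017 CPM. The sums of bipolar, amacrine and horizontal, rod and cone markers overlapped. The part of these markers in the subunits' values was not tested.

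Most other subunits had small negative values at P30, 24 of 33 in all, with a median of -0.20 against 0.01 over all genes. Gria2 was at 33.4, 29.4 and 21.9 CPM in OIR and 40.3, 39.1 and 37.5 in control, below every control library but not past the threshold (-0.46, adjusted p = 0.0501). Gabra4 was again lower in every OIR library, at 6.67, 7.41 and 6.95 against 9.14, 10.04 and 9.31 CPM (-0.44, adjusted p = 0.0609). Gabrd was at 38.4, 37.6 and 60.8 CPM in OIR and 33.7, 32.98 and 31.4 in control, with OIR replicate 3 far above the others (0.48, adjusted p = 0.104). The Glra1 to Glra2 ratio overlapped between conditions at P30, at 0.915, 1.05 and 1.04 in OIR and 0.932, 1.07 and 0.715 in control.

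Whether the OIR effect changed with age was tested as a difference of effects. Between P14 and P17 the test called 0 of 33 subunits and 0% of all genes (0 of 19905 by edgeR, 0 by limma-voom and 170 by DESeq2, which called 0 of the subunits; 4 subunits and 1698 genes had an unadjusted p under 0.05). From P17 to P30 it called 3 subunits, all higher, 9.09% of the set against 9.29% of all tested genes (5.45% higher and 3.84% lower). These were Grin2d (difference 1.01, SE 0.209, adjusted p = 0.00745), Grik5 (0.91, SE 0.123, adjusted p = 0.000489) and Grin1 (0.77, SE 0.145, adjusted p = 0.00422). All 3 were lower in every OIR library at P17 and higher in every OIR library at P30, and the Grin1 difference did not pass without the 2 lens-rich libraries (adjusted p = 0.0618). For Gabra4, lower at all 3 ages, the difference was 0.49 and did not pass (adjusted p = 0.124). Grin1, Grin2d and Grik5 were picked by the test of this difference, so the separation of their libraries is no further evidence for it. How many of all tested genes separate at both ages was not counted. The part of the cell type markers in these differences was not tested.

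The 3 subunits called higher at P30 lie among the 5 with the highest GC content. Transcript GC (longest GENCODE M21 transcript) ran from 35.2% to 65.0% over the 33 subunits, and was 65.0% in Grin2d, 63.5% in Grin3b, 62.1% in Grin2c, 61.7% in Grik5 and 59.4% in Grin1. Gabrd and Grik4, with the highest P30 values after Grin3b (0.48 and 0.47, neither past the threshold), had 54.8% and 52.2%. Across the 33 subunits GC content and the OIR fold change at P30 had a Pearson r of 0.756 and a Spearman rho of 0.659, against 0.267 and 0.380 across 18803 tested genes, and at P17 0.0994 and 0.119. These are correlations across genes that share the same libraries, and genes are not independent replicates. With the per-library GC offset, the P30 values were 0.12 for Grin1 (adjusted p = 0.550), 0.10 for Grik5 (adjusted p = 0.519) and 0.63 for Grin3b (adjusted p = 0.191), while the P30 minus P17 differences kept their calls at 0.61, 0.70 and 0.73 for Grin1, Grik5 and Grin2d.

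**Figure D5:**
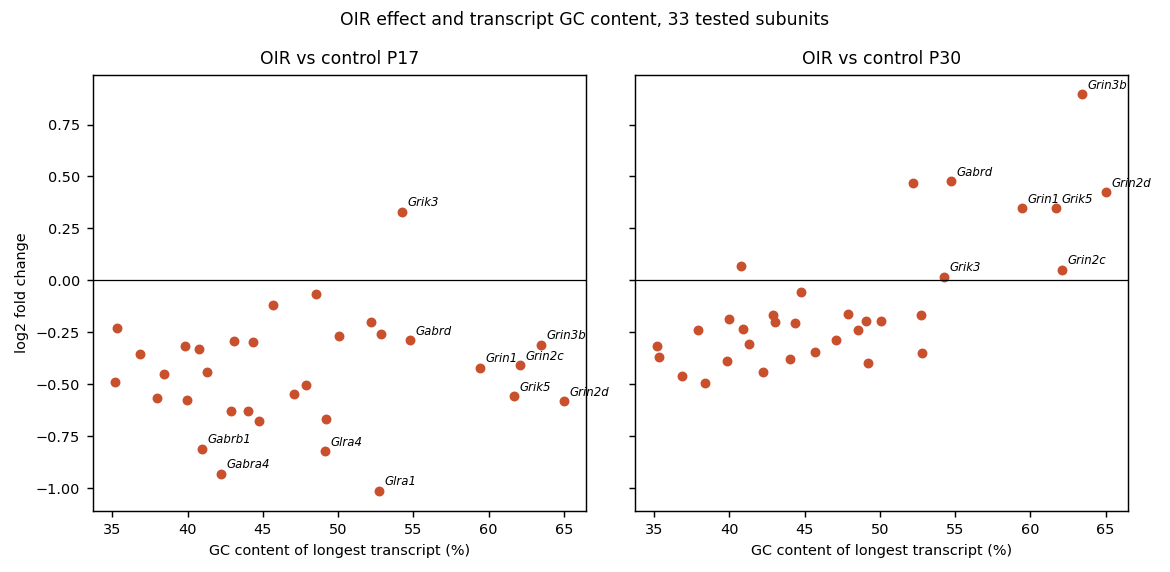
Log2 fold change of OIR against control (vertical axis) by GC content of the longest transcript in percent (horizontal axis), one point per tested subunit, at P17 on the left and P30 on the right. Labels mark genes with a high GC content or a large fold change. At P30 the 7 labelled genes lie above 0, with Grik3 (0.02) and Grin2c (0.05) close to it, and at P17 Pearson's r is 0.0994.

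Partner genes of the receptors were read from lists of inhibitory synapse, excitatory synapse and metabotropic receptor genes. At P17 in OIR 10 of 14 inhibitory partners fell and 0 rose (median log2 fold change -0.44); those with the smallest p were Slc6a9, the glycine transporter of amacrine cells (-0.73), Slc12a5, the chloride exporter KCC2 (-0.53), Lhfpl4, which anchors GABA-A receptors (-0.53), and Slc32a1, the vesicular transporter of GABA and glycine (-0.41). Of 30 excitatory partners 15 fell and 0 rose (median -0.41); those with the smallest p were the AMPA receptor auxiliary gene Cacng5 (-0.65) and the scaffolds Dlg2 (-0.63), Shank3 (-0.65) and Grip1 (-0.49). The lowest value was that of the scaffold Shank1 (-0.93, adjusted p = 0.000928, edgeR), named after its values were seen. All genes were called lower at 6.76% in this comparison, as given above. Of 10 metabotropic receptors 6 fell and 0 rose (median -0.44), with the GABA-B subunits Gabbr1 (-0.52) and Gabbr2 (-0.50) and the glutamate receptor Grm7 (-0.51) among those with the smallest p. The partner genes were not read under the alternatives, and sex and OIR coincide at P17 for them as well. Some, such as Slc6a9 and Slc32a1, are also among the amacrine and horizontal markers above, so the lists overlap.

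At P14 in OIR 0 of the 14 inhibitory, 30 excitatory and 10 metabotropic genes passed by edgeR. At P30 Slc32a1 (0.29), the AMPA receptor auxiliary gene Cacng7 (0.30) and Grm2, a glutamate autoreceptor (0.61), rose, while Slc6a5, the glycine transporter of glycinergic neurons in spinal cord (-0.51), Neto2, a kainate receptor auxiliary gene (-0.57), and Grip2 (-0.44) fell. Of all tested genes 4.96% were called higher and 3.63% lower at P30, and these partner calls too were not read under the alternatives. The difference of effects from P17 to P30 was called higher for 5 of 14 inhibitory, 9 of 30 excitatory and 2 of 10 metabotropic genes, and lower for 0 in each list, against 5.45% higher and 3.84% lower among all tested genes. In control retina from P14 to P17, where 18.3% of all tested genes rose and 21.9% fell, the 14 inhibitory partners had 0 rises and 6 falls, among them Shisa7, a GABA-A auxiliary gene (-2.12), and Nlgn2, the neuroligin of inhibitory synapses (-1.10), and the 30 excitatory partners had 2 rises and 8 falls, among them the scaffolds Shank1 (-1.96) and Shank2 (-1.24). Slc12a5 rose by 0.57 on the log2 scale from P17 to P30 in controls.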

How the data were processed

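Per the labels' protocols, mRNA of retina lysates was sequenced on an Ion Proton, reads were aligned to mm10 with STAR and then Bowtie2 in Torrent Suite 5.4.0, and HTSeq counted reads per gene. The deposited values are raw counts, which the authors did not normalize, for 43280 gene symbols in 16 libraries. The sources used here give neither the annotation release nor the strand setting.

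Groups came from sample titles. The counts were fitted with edgeR 4.0.16 (R 4.3.3): filterByExpr (minimum count 10, minimum total 15), TMM, and 1 robust quasi-likelihood fit of 6 group means with 10 residual degrees of freedom. P-values were adjusted by Benjamini-Hochberg over 19905 tested genes, with a threshold of 0.05, and the SE is the size of the log2 fold change over the square root of F. Ratios used counts plus 0.5 and a two-sided exact permutation test. The steps were tested on simulated data. Alternatives included DESeq2 1.42.0, limma-voom (limma 3.58.1), other scalings and filters, covariates and left-out libraries.

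The members and lists were chosen with earlier results of these data known. Any member may be named, and of partner lists up to 4 called genes with the smallest p per comparison. Adarb1 and Slc12a5 fall under the same rule. Some genes that the rule names are not reported here. Locations and overlaps come from GENCODE M21, and promoters from RefSeq.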

Additional observations from a re-analysis of the deposited data

Results flagged for a closer look

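Grin1, Grin2d and Grik5 were flagged because the OIR effect itself differed between P17 and P30 by the edgeR test of the difference. The differences were 0.77 for Grin1, 1.01 for Grin2d and 0.91 for Grik5 on the log2 scale, each lower in 3 of 3 OIR libraries than in every control at P17 and higher in 3 of 3 at P30. In the same comparison 9.29% of all tested genes were called. The share of all genes with libraries separated at both ages was not counted. The 3 genes have a GC content of 59.4%, 65.0% and 61.7%, and with the GC offset the differences were 0.61, 0.73 and 0.70. The part of GC content, and of the sex that differs with OIR at P17, in these values was not tested further. That of the cell type markers was not tested.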

How the results depend on the processing

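No call of a subunit changed direction under any alternative (0 of 1245 subunit values), 1036 kept their call and 209 lost it. Counts of called subunits that moved by over 1.5 times, other than with 1 library left out, were these. OIR at P14 (1) was 2 without a count filter, 2 with DESeq2 and 0 with the lens covariate. OIR at P17 (17) was 1 with the Y-linked covariate and 8 without the 2 lens-rich OIR libraries. OIR at P30 (3) was 1 with library-total scaling, 7 without a count filter, 7 with DESeq2, 1 with limma-voom, 1 with the replicate block, 0 with only the groups compared and 0 with the GC offset. The difference P30 minus P17 (3) was 5 without a count filter, 7 with DESeq2 and 7 with the GC offset. Control P30 against P17 (15) was 8 with the GC offset, and control P30 against P14 (19) was 10 with the lens covariate. The GC offset, the crossed pairing and the leaving out of the lens-rich libraries were added after seeing the data.

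With each of the 16 libraries left out in turn, the counts ran from 7 to 16 for control P17 against P14, 9 to 17 for P30 against P17 and 15 to 20 for P30 against P14. They ran from 0 to 1 for OIR at P14, 10 to 20 at P17, 0 to 4 at P30, 0 to 0 for the difference P17 minus P14 and 3 to 6 for P30 minus P17. The count at P30 was also 1 without P30 control replicate 1, any P14 library or P17 OIR replicate 2, and the difference was 6 without P30 OIR replicate 2. The log2 ratios moved by less than the spread between libraries under every alternative.

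Same-numbered control and OIR libraries did not deviate together (correlations from -0.208 to 0.0493), so no pairing by number was seen. With so few libraries this does not exclude it, and the 2 values at P14 are equal by construction. With a replicate block the counts were 14, 14 and 18 for the control ages, 1, 16 and 1 for OIR at P14, P17 and P30, and 0 and 3 for the differences. At P14 the correlation was -0.129, and with the 2 OIR numbers there exchanged in the block the counts were 1, 16 and 3 for OIR at the 3 ages.

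Depth limits Grin2a, Grin3b, Gabra5 and Gabrb1, at 4.12 CPM or less in each library, and their missed thresholds do not show equal levels.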
